A study of Mus musculus with 62 samples.

Results

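Transforming growth factor beta (TGF-beta) ligands, their receptors and the Smad proteins that carry their signal were followed through single cells of a mouse pancreatic cancer line, together with Id1 and Id3, genes that this superfamily is known to control. The 10 genes were chosen by name, with earlier results of these data known: Tgfb1, Tgfb2, Tgfbr1, Tgfbr2, Smad2, Smad3, Smad4, Smad7, Id1 and Id3. All 10 had a row among the 19112 gene rows of the deposited table. The cells were KPC1199-EGFP, a line of C57BL\6 background that expresses a green fluorescent protein. They were grown attached to plastic, left untreated, trypsinised at passage 9, and captured and amplified singly on the Fluidigm C1 system, which isolates each cell in its own microfluidic chamber. The labels name 62 libraries, each made from 1 cell, and all come from 1 culture. That culture counts as 1 sample, so cells are described and no test between conditions was possible.

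The levels below come from the 50 libraries in which ERCC spike-in RNA, synthetic transcripts added to every chamber, took under 20% of the counts. In these the spike-in share ran from 0.190% to 1.83%, and gene counts ran from 2153895 to 12868806 with a median of 7194657. Each library had 6832 to 11068 genes above 0, with a median of 8830.5. Levels are CPM, counts scaled to the sum of all gene counts and given in parts per 1000000, and means and SDs are on the log2(CPM + 1) scale over cells. A value of 3 counts was worth 0.233 to 1.39 CPM, depending on the library. Markers of epithelial duct cells had a high summed level in these cells, from 3771 to 25164 CPM. Of the 8 listed, 7 were above 0 in at least 50% of libraries, against 48.6% of all gene rows. The exception was Epcam, above 0 in 18 libraries. Of the fibroblast markers with a row, 6 of 9 were at 0 in every library (Col1a2, Dcn, Lum, Pdgfrb, Pdpn and Fap), and the summed level ran from 0 to 75 CPM with a median of 0.229. All 5 endothelial markers were at 0, as were the immune markers Cd3e, Csf1r and Lyz2, although the immune marker Cd14 was above 0 in 49 libraries. The acinar marker Cpa1 was at 0 and Cela1, the other acinar marker with a row, was above 0 in 11 libraries.

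In the TGF-beta pathway a secreted ligand brings together a type II receptor, encoded by Tgfbr2, and a type I receptor, encoded by Tgfbr1. The type I receptor phosphorylates Smad2 and Smad3, which join Smad4, enter the nucleus and act on target genes. Smad7 is induced by the signal and blocks the receptor, which closes a negative feedback loop. Id1 and Id3 encode inhibitors of DNA binding, proteins that pair with basic helix-loop-helix factors and keep them off DNA. They are classical targets of the related bone morphogenetic protein (BMP) branch and can also respond to TGF-beta. In the pancreas the pathway is known as a brake on epithelial growth, and its loss, often through SMAD4, is common in human pancreatic cancer.

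Short promoter sequences are shown for Id3 and Id2, whose levels varied together across cells, and for Tgfbr1, the member whose promoter held the same motif as that of Id2. They come from RefSeq (build GRCm38.p6), in which 6 of the 10 members had a promoter entry. Id1, Smad2, Smad4 and Smad7 had none. The 250 bases before each start were searched on both strands for GGCGCC, which reads the same on either strand and is known from BMP-responsive elements, and for GTCTG or its complement CAGAC, letters that Smad3 and Smad4 can bind. These motifs share no overlap. Capitals mark the match, and each line reads 5′ to 3′ on the gene's strand.
Tgfbr1: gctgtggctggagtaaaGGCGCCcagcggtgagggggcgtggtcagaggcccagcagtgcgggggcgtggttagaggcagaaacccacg
Id2: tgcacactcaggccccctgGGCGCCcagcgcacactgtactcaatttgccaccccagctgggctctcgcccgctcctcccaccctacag
Id3: tgtcctcggcgtCAGACcagcctaaggaa
The Tgfbr1 stretch lies at chr4:47352972-47353060 on the plus strand and the Id2 stretch at chr12:25096254-25096342 on the minus strand, each from 250 to 162 bases before the start. The Id3 stretch lies at chr4:136143643-136143671 on the plus strand. GGCGCC occurred in 9.59% of 32851 promoter windows of this length and GTCTG in 42.2%. Among the members with an entry, GGCGCC was present only in the window of Tgfbr1 printed here. GTCTG was found for Tgfb2, Tgfbr2, Id3 and another start of Tgfbr1, and neither motif was found for Tgfb1 or Smad3. Id3 and Id2 shared neither motif: the Id3 window held GTCTG without GGCGCC, and the Id2 window held GGCGCC without GTCTG. A match describes letters only, and binding was not measured. Whether these motifs have a part in the levels was not tested.

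At least 50% of the 50 libraries had a value above 0 for 9 of the 10 genes, against 48.6% of all gene rows. The same 9 reached at least 1 CPM in at least 50% of libraries, against 42% of all gene rows. The exception was Tgfb2. A value above 0 is a weak criterion at this depth. An example, picked once its values were known, is the fibroblast gene Col1a1: it had a value above 0 in 41 libraries but reached 1 CPM in 1 of them, so both counts are given for each member.

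**Figure D1:**
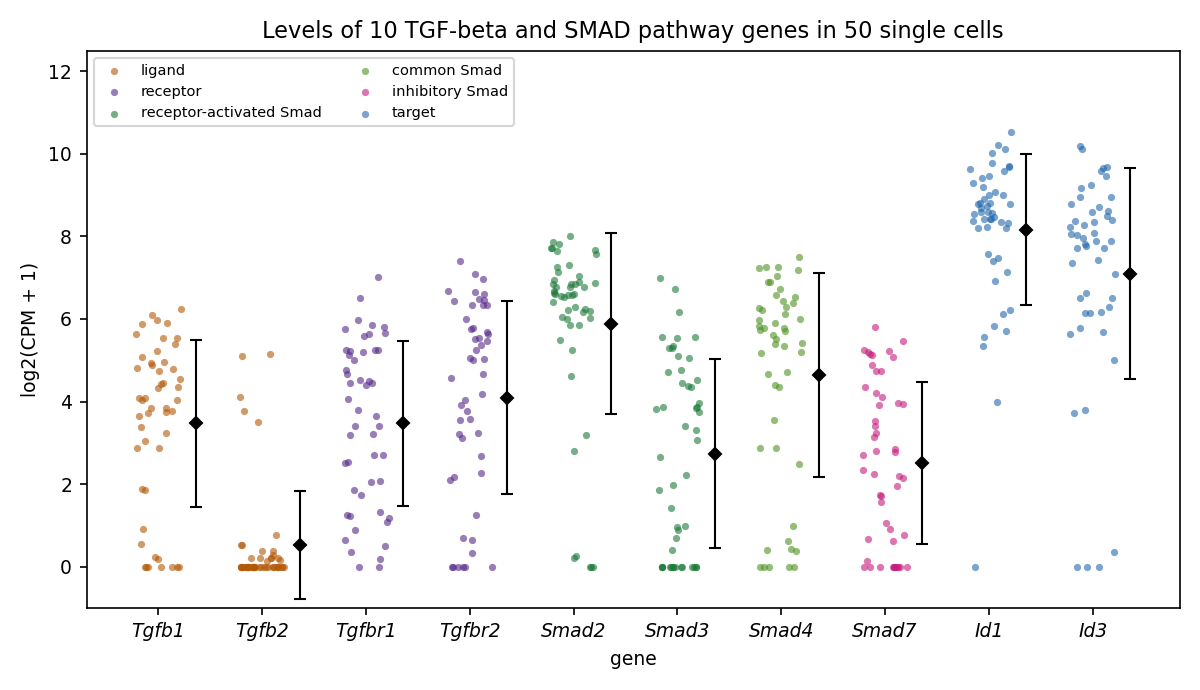
Level of each of the 10 genes, as log2(CPM + 1), in 50 single-cell libraries. Each point is 1 cell, spread sideways for visibility and coloured by role, and the diamond with its bar is the mean and SD over cells. Id1 (mean 8.17) and Id3 (mean 7.10) sit highest, and most Tgfb2 points are at or near 0.

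Tgfb1, the ligand that gave the family its name, was above 0 in 43 of 50 libraries (86%, exact Clopper-Pearson 95% interval 73.3% to 94.2%) and at 1 CPM or more in 39. Its CPM ran from 0 through a median of 15.4 to a highest value of 74.1, with the middle 50% of cells between 3.57 and 29.4. The mean was 3.47 ± 2.02 (SD, n = 50 cells) on the log2(CPM + 1) scale. No cell stood far above the rest, and the highest library held 7.24% of the summed CPM. Tgfb1 was among the less variable genes for its level. Variability here is how far a gene's squared coefficient of variation (log2) lies above or below the trend with mean level, and that of Tgfb1 stood at percentile 19.9 of 12012 genes.

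Tgfb2, another TGF-beta ligand, showed the opposite form. It was above 0 in 18 libraries (36%, interval 22.9% to 50.8%), but in 13 of these it stayed below 1 CPM. The other 5 libraries held 34.8 CPM (library 54), 33.4 (library 46), 16.3 (library 29), 12.6 (library 28) and 10.3 (library 47), and the next highest cell held 0.713. The distribution was therefore split, with nothing between 0.713 and 10.3 CPM. The 5 high cells lay in 3 of the 8 blocks of 12 consecutive label numbers, taken as a possible technical batch. Its mean was 0.52 ± 1.31 and its variability percentile 91.4. Library 54 alone held 31.4% of the summed CPM. In the GENCODE M21 annotation Tgfb2 is overlapped on the opposite strand by an antisense gene and a snoRNA gene, neither with a row in the table, and no source used here states whether the counting used strand. Either ligand, Tgfb1 or Tgfb2 was above 0 in 44 libraries.

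Tgfbr1, the type I receptor, was above 0 in 48 libraries (96%, interval 86.3% to 99.5%) and at 1 CPM or more in 43. Its CPM ranged from 0 to 128.5 with a median of 12.3, and the middle 50% of cells lay between 2.40 and 36. Tgfbr2, the type II receptor that binds ligand first, was above 0 in 44 libraries (88%, interval 75.7% to 95.5%) and at 1 CPM or more in 41. Its CPM ranged from 0 to 169.4 with a median of 27.9. The means were 3.47 ± 1.99 for Tgfbr1 and 4.10 ± 2.34 for Tgfbr2. Both receptors were somewhat above the middle of all genes in variability for their level, at percentiles 59.2 and 66.2. Their levels were nearly unrelated across cells (r = 0.10). Both were above 0 in 42 libraries, at 1 CPM or more in 35, and above 0 in 37 after thinning every library to 2000000 counts.

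Smad2, a receptor-activated Smad, was above 0 in 47 libraries (94%, interval 83.5% to 98.7%). Its CPM had a median of 95.9 and a highest value of 257.7, with the middle 50% of cells between 63.1 and 120.4, and its mean was 5.89 ± 2.19. Most cells thus lay close together, while 3 libraries were at 0 and another 2 were below 1 CPM. Whole numbers (within 1e-06) made up only 2 of its 47 values above 0, whereas every value of Smad3, Smad4, Smad7, Tgfb1, Id1 and Id3 was whole. An estimated count that is not whole comes from reads divided among sequences, so the Smad2 level is less certain than theirs. The same holds for Tgfb2, for which 2 of the 18 values above 0 were whole.

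Smad3, the other receptor-activated Smad of this branch, was less widespread. It was above 0 in 36 libraries (72%, interval 57.5% to 83.8%) and at 1 CPM or more in 31. Its CPM had a median of 8.14, the middle 50% of cells lay between 0 and 24.5, and the mean was 2.73 ± 2.29. The highest values were 127.1 CPM in library 17 and 104.5 CPM in library 32. Smad2 without Smad3 was found in 13 libraries and Smad3 without Smad2 in 2, and both were above 0 in 34. At least 1 of the pair was above 0 in 49 libraries and at 1 CPM or more in 48.

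Smad4, the partner shared by the TGF-beta and BMP branches, was above 0 in 45 libraries (90%, interval 78.2% to 96.7%) and at 1 CPM or more in 40. Its CPM had a median of 49.9 and reached 180.3, with the middle 50% of cells between 7.42 and 81.3. The mean was 4.64 ± 2.47, and the variability percentile was 55.8. Its RNA was thus present in most cells of the line. The 5 libraries at 0 held 2153895 counts or more each, so a level of 1.39 CPM was worth 3 counts or more in any of them.

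Smad7, the inhibitory Smad, was above 0 in 39 libraries (78%, interval 64% to 88.5%) and at 1 CPM or more in 34. Its CPM had a median of 4.78 and a highest value of 54.6, and its mean was 2.51 ± 1.96. Like Tgfb1 it was among the less variable genes for its level, at percentile 21.

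Id1 and Id3 were the most abundant members and the most variable for their level. Id1 was above 0 in 49 libraries (98%, interval 89.4% to 99.9%), all of them over 10 CPM, and 42 cells were over 100 CPM. Its CPM had a median of 382, a middle 50% of 216 to 578 and a highest value of 1471, and its mean was 8.17 ± 1.82. Id3 was above 0 in 47 libraries (94%, interval 83.5% to 98.7%), with 33 cells over 100 CPM. Its CPM had a median of 236, a middle 50% of 72.4 to 390 and a highest value of 1176, and its mean was 7.10 ± 2.55. Their variability percentiles were 97.9 and 98.2. Together with Tgfb2 they were the 3 members above percentile 90, but the spread had a different form: Tgfb2 was near 0 in most cells, and the Id genes ranged over high levels. Over all 10 members the median percentile was 62.7, and 7 of 10 were above 50.

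Levels of different genes were set side by side per kilobase of transcript, using the median length of each gene's GENCODE M21 transcripts. The mean CPM per kilobase (± SD over 50 cells) was 422 ± 311 for Id1, 231 ± 220 for Id3, 76.3 ± 50.6 for Smad2, 29.2 ± 43.5 for Smad3 and 19.7 ± 17.6 for Smad4. Lower values were found for Tgfbr1 (9.48 ± 11.1), Tgfb1 (9.41 ± 9.15), Smad7 (8.55 ± 10.6), Tgfbr2 (6.82 ± 7.19) and Tgfb2 (0.515 ± 1.70). In this order no gene differed from its neighbour by more than the larger SD of the pair. The difference did exceed the smaller SD for Id3 and Smad2, for Smad2 and Smad3, and for Tgfbr2 and Tgfb2. Id1 and Id3 came first and second and Tgfb2 last also when the longest transcript was used. The middle of the order changed with that choice, with Smad4 moving up to the third place and Smad3 down to the eighth.

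**Figure D2:**
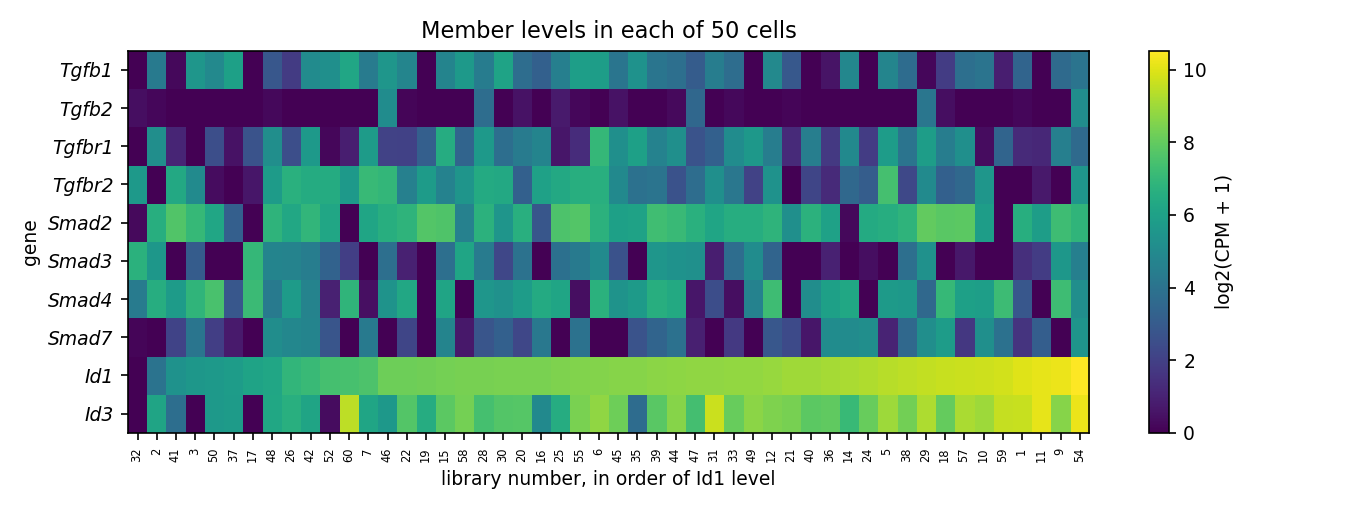
Level of the 10 genes, as log2(CPM + 1) in colour, in each of 50 libraries, with the libraries in order of their Id1 level from left to right. Id3 rises with Id1 by and large, no other row shows such a rise, and Tgfb2 is bright in 5 columns.

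A cell can pass the signal on only if it has the whole chain, so co-detection was counted. Both receptors, Smad4 and at least 1 of Smad2 and Smad3 were above 0 together in 38 of 50 libraries (76%, exact interval 61.8% to 86.9%). The count was 27 at 1 CPM or more and 30 after thinning to 2000000 counts. With Tgfb1 added it was 35 libraries, and with Tgfb1 and Smad7 added it was 29. All 9 members other than Tgfb2 were above 0 together in 20 libraries, and all 10 in 10. A library held between 5 and 10 of the members, with a median of 8.5. A cell without a member's RNA and a cell in which that RNA was not captured cannot be told apart here, and protein was not measured.

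Id1 and Id3 varied together. Across 50 cells their log2 levels had a Pearson r of 0.73 and a Spearman rho of 0.78. Of the 10 cells lowest in Id1, 6 were also among the 10 lowest in Id3, and of the 10 highest, 7 were shared. Id1 exceeded Id3 in CPM in 44 of 50 cells. Library 32 held no Id1, Id3 or Id2, and libraries 3 and 17 held no Id3 with 45.9 and 68.4 CPM of Id1. Library 54 was the highest for Id1, Id3 and Tgfb2 alike. Library 32 also had the fewest genes above 0 of the 50 (6832), and library 17 the next fewest (6935). Libraries 3 and 54 had 9525 and 8439. The r was 0.68 without library 32 and 0.72 without library 54. It was 0.74 within label-number blocks and 0.62 over the 47 cells with both genes above 0. For scale, the central 95% of r over all pairs among the 9282 genes above 0 in at least 50% of libraries ran from -0.29 to 0.34, with a median of 0.03.

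**Figure D3:**
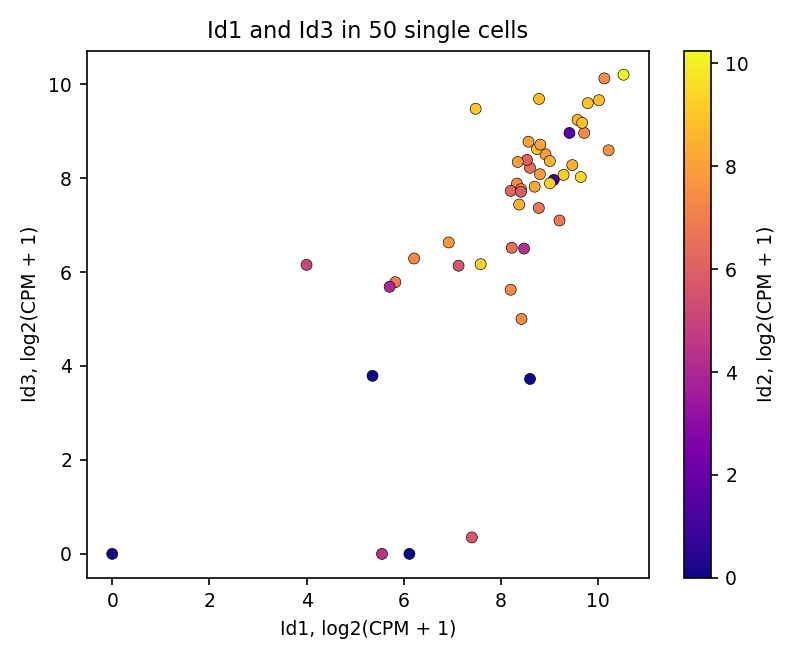
Id3 against Id1, both as log2(CPM + 1), in 50 libraries, each point being 1 cell coloured by its Id2 level on the same scale. Most cells lie in the upper right, where Id2 is mostly high as well, and the cell at the origin is library 32 (r of Id1 and Id3 0.73).

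Id2, another inhibitor of DNA binding, varied with them. It was above 0 in 46 libraries with a mean of 6.70 ± 2.73 and a median of 182 CPM, and its variability percentile was 97.6. Its r was 0.55 with Id1 and 0.65 with Id3. Over cells with both genes above 0 these values were 0.36 (46 cells) and 0.33 (45 cells), the latter within the central 95% of all gene pairs. Of the cells lowest in Id1, 5 were among the 10 lowest for all 3 genes, and 3 cells were among the 10 highest for all 3. Members of the BMP route that were found in most cells had low correlations with Id1 and Id3. Bmp4, a BMP ligand, had an r of 0.22 with Id1 and 0.23 with Id3. Its receptors Bmpr1a and Bmpr2 and the BMP-activated Smad1 and Smad5 had values between -0.06 and 0.13 with either gene.

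No other pair of members came close. Among the 36 pairs of the 9 members above 0 in at least 50% of libraries, the median r was 0.09, the lowest was -0.26 and 10 pairs were below 0. After Id1 and Id3, the next highest were Tgfbr1 with Id3 (0.32), Tgfb1 with Tgfbr2 (0.32) and Smad2 with Id1 (0.31). Over cells with both genes above 0 these values were 0.14, 0.26 and 0.04. Smad2 with Id1 was 0.41 without the 2 cells farthest from the Smad2 median and 0.45 within label-number blocks. Its value thus depended on which cells were kept and on whether differences between blocks were removed. Tgfbr1 with Id3 was 0.15 without the 2 cells farthest from the Tgfbr1 median and 0.36 within blocks. The lowest value, between Smad3 and Id1, was -0.07 without the 2 cells of highest Smad3, libraries 17 and 32, in which Id3 was at 0. By rank the lowest was Tgfbr2 with Id1 (Spearman rho -0.35), a pair with an r of -0.10. When counts were scaled by spike-in RNA in place of gene counts, every one of the 36 pairs had a higher r and the median was 0.23. That scale keeps differences in total RNA between cells.

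**Figure D4:**
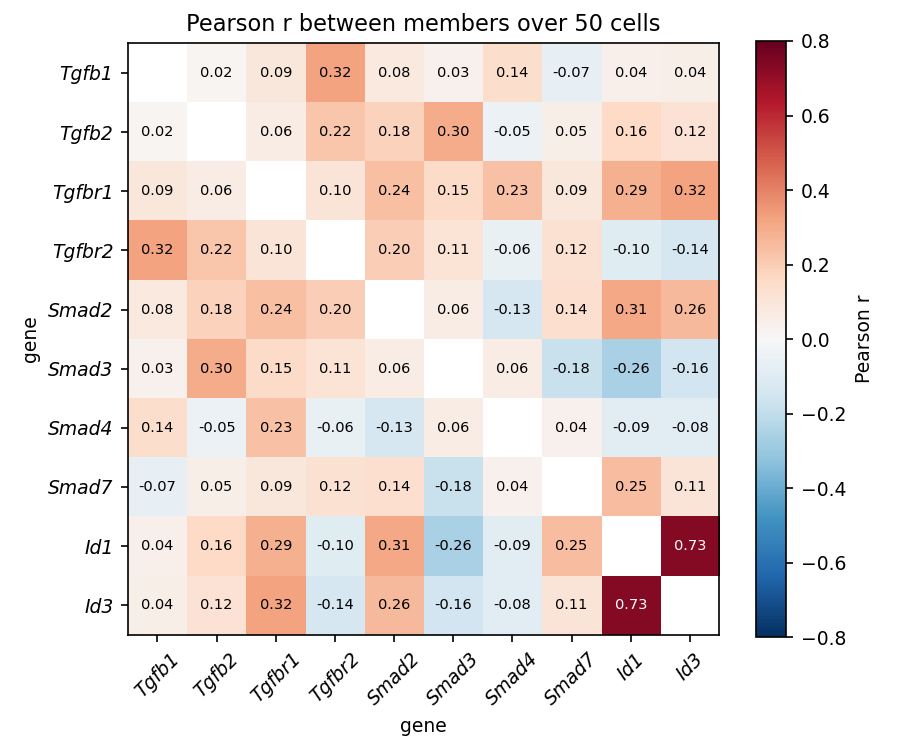
Pearson r of log2(CPM + 1) between each pair of the 10 genes over 50 libraries, in colour and in figures. Id1 with Id3 (0.73) stands apart, and every other pair lies between -0.26 and 0.32.

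Smad2 was the member that moved most with the number of genes above 0 and with the spike-in share. Its r was 0.505 with the number of genes above 0 and -0.595 with the spike-in share, whereas the other members had values between -0.01 and 0.28 with the former and between -0.31 and 0.00 with the latter. Smad2 also had an r of 0.485 with log2 gene counts per ERCC count. Library quality and the RNA content of a cell cannot be told apart by these measures. The part of either in the low Smad2 values was not tested. Tgfb1 had the highest r with the S phase score (0.42) and the G2 and M phase score (0.34). Each score is a mean over 10 genes, with every gene first centred and divided by its SD over cells. Smad2 had 0.34 with the S phase score. Id1 and Id3 had 0.21 and 0.17 with the S phase score and -0.03 and 0.09 with the G2 and M phase score. Label-number blocks held between 5.85% (Tgfbr1) and 20.7% (Tgfb2) of a member's variance.

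For each member above 0 in at least 50% of libraries, the 3 genes of most similar pattern were taken by Pearson r over the 50 cells. For Id1 they were Id3, Ap1s1 (0.73) and Eif3h (0.67), but the last 2 fell to 0.40 and 0.27 without the 2 cells farthest from the Id1 median. For Id3 they were Id1, Id2 and Celf4 (0.62). The nearest to Smad2 was Ranbp3 (0.75), a Ran-binding protein known to export Smad2 and Smad3 from the nucleus, followed by Smn1 (0.68) and Ift27 (0.68). Their rank correlations were lower, at 0.35, 0.23 and 0.30. For Tgfbr1 they were Amd1 (0.52), Klf10 (0.52) and Znrf2 (0.51). Klf10 is an early TGF-beta response gene, and its r with Tgfbr1 was 0.39 over the 45 cells with both above 0. Tgfb1 had Ppm1g (0.59), Azin1 (0.59) and Slc7a6 (0.58), and Tgfbr2 had Hmg20b (0.50), Ptgr2 (0.48) and Klhdc2 (0.48). Smad3 had Glipr1 (0.56), Dnal4 (0.51) and Hp1bp3 (0.51). Smad4 had Rbmxl1 (0.57), Spag9 (0.56) and Rbck1 (0.53), and Smad7 had Ap3m1 (0.56), Pum2 (0.51) and Adss (0.49).

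The rest of the pathway was read from lists of 76 genes, of which 73 had a row. Of these, 38 (52.1%) were above 0 in at least 50% of libraries, and 34 reached 1 CPM in at least 50%. The share over all gene rows was 48.6% for the first criterion, close to that of the lists, and 42% for the second. Another 6 were at 0 in all 50 (Inhbb, Ltbp2, Itgb8, Tgfbr3, Bmpr1b and Gata2). For a gene at 0 in 50 cells the data allow a share of cells above 0 of up to 7.11% (exact 95% interval). The lists differed in how many of their genes were widespread, meaning above 0 in at least 50% of libraries.

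Among ligands, 2 of 10 were above 0 in at least 50% of libraries. Bmp4 led with a mean of 3.71 ± 2.73, and Gdf15, Bmp2 and Tgfb3 were above 0 in 21, 20 and 10 libraries. Tgfb3, the remaining TGF-beta ligand, was like Tgfb2 in that a single cell held 57.2% of its summed CPM, with a highest value of 101.9 CPM. Of genes that process or release the ligand, 4 of 10 were widespread. Itgav, an integrin chain that helps to activate latent TGF-beta, was above 0 in all 50 libraries (mean 5.64 ± 1.31), and the latent TGF-beta binding proteins Ltbp3 and Ltbp1 were above 0 in 47 and 38. Thbs1, another activator, was above 0 in 22 but reached 934 CPM.

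Among the other receptors and co-receptors, 4 of 12 were widespread. The BMP receptors Bmpr1a (5.5 ± 1.64, 48 libraries) and Bmpr2 (4.08 ± 2.33, 47 libraries) had the highest means, and the activin receptor Acvr2a (2.11 ± 2.30, 27 libraries) came next by mean. Bambi, a pseudoreceptor that dampens signalling, was above 0 in 16. Among the other Smads, the BMP-activated Smad1 and Smad5 were above 0 in 39 and 40 libraries, and the inhibitory Smad6 and the BMP-activated Smad9 in 22 and 20.

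The regulators of Smads were the most widely found, with 13 of 15 above 0 in at least 50% of libraries. Fkbp1a, which holds the type I receptor inactive, was above 0 in all 50 (10.59 ± 0.38), as was Strap, a receptor-binding inhibitor (8.0 ± 0.67). Usp9x, which removes ubiquitin from Smad4, and the corepressor Tgif1 had means of 6.40 ± 1.65 and 6.11 ± 1.89. Of the TGF-beta targets, 11 of 15 were above 0 in at least 50% of libraries and 9 reached 1 CPM in at least 50%. Cdkn2b, a cell cycle inhibitor, had a mean of 6.01 ± 1.84, Junb 5.77 ± 2.10, and Pmepa1, a feedback inhibitor, 5.30 ± 1.70. Snai2, a repressor of epithelial genes, was above 0 in 37 libraries and at 1 CPM or more in 23. Tgfbi, a standard readout of the pathway that was picked once its values were known, was above 0 in 1 library. Most of the listed targets were thus widespread, but not all of them. Of the BMP and Id targets, 2 of 7 were widespread, Id2 and Hes1 (5.88 ± 1.78), and Atoh8 was above 0 in 15 libraries.

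**Figure D5:**
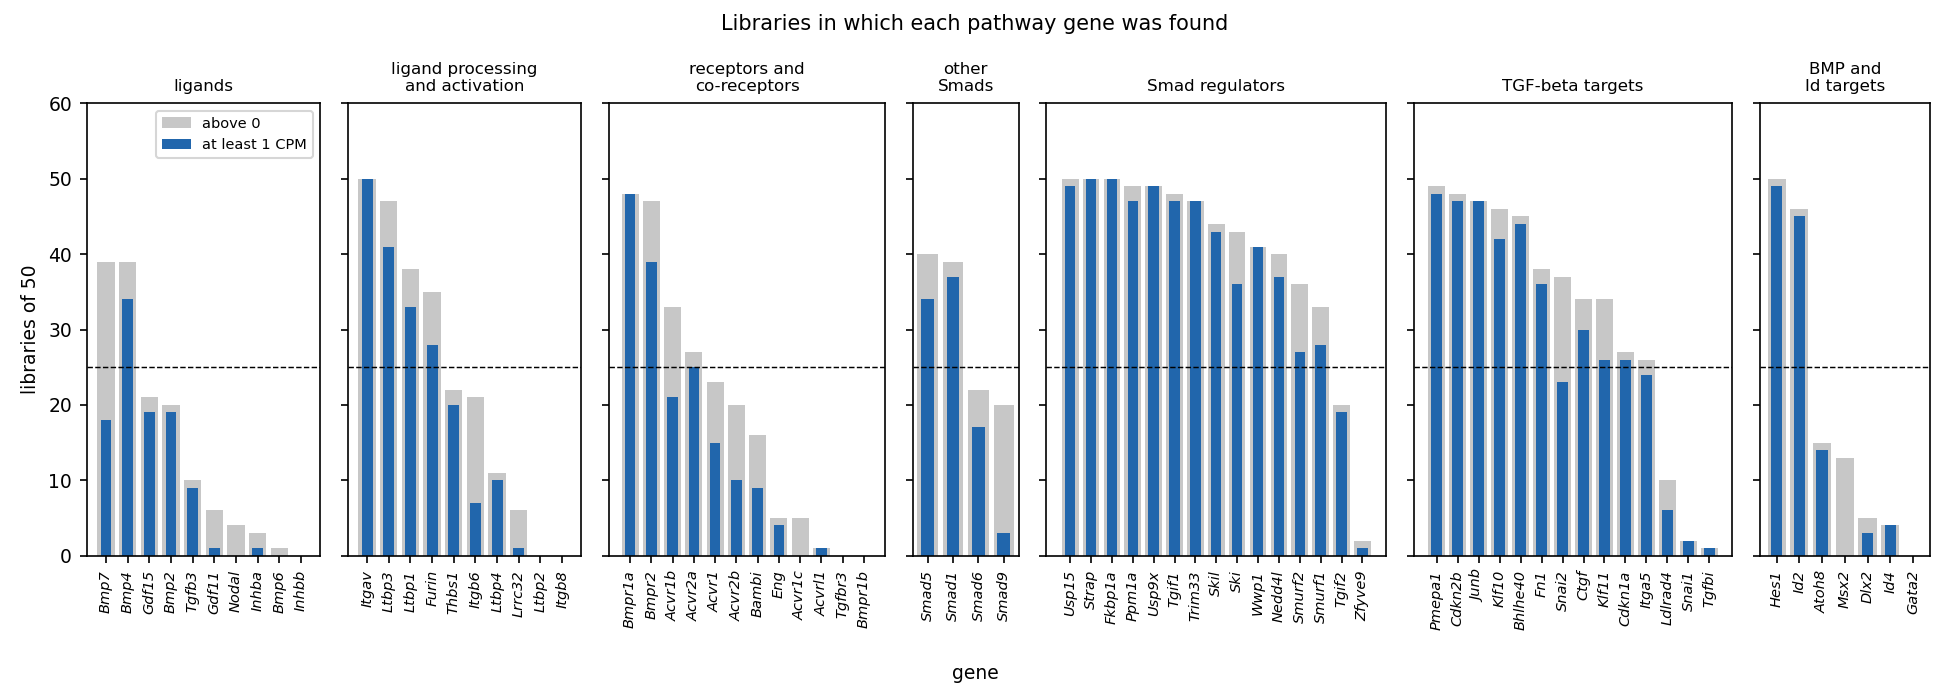
Number of the 50 libraries in which each pathway gene drawn was above 0 (grey bars) or at 1 CPM or more (blue bars), by list, with a dashed line at 25 libraries. Of the Smad regulators 13 of 15 pass the line on the grey bars, against 2 of 10 ligands.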

How the data were processed

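The authors deposited estimated counts for each gene symbol. The submitters' processing notes name kallisto and the build mm9. No version, annotation or way of joining transcripts into genes is stated, so these remain unknown here. The table held 19112 gene rows and 65 ERCC rows for 62 cells, and 12 cells whose ERCC rows took at least 20% of counts were left out. The counts were divided by the sum of gene rows to give CPM, unrounded, and log2-transformed with a pseudocount of 1. Counts were rounded for thinning and for TMM factors (edgeR 4.0.16). Variability used genes above 0 in at least 10 libraries and a lowess trend (fraction 0.3, statsmodels 0.14.6). Intervals are exact Clopper-Pearson 95% intervals and cover the sampling of cells only. No count model was fitted, no p-value was computed and no doublet caller was run. All correlations are descriptions over cells of 1 culture that differ in depth.

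Beside all 10 members, the text names from each pathway list the 3 genes of highest mean and the 1 of largest variability residual, and for each member above 0 in at least 50% of libraries its 3 closest genes by r. The BMP genes set against Id1 and Id3 come from those lists. The members and lists were chosen with earlier results of these data known. The computations were tested on simulated data. Alternatives were the pseudocount, TMM and spike-in scaling, all 62 libraries, a level of 1 CPM, thinning, the variability filter, label-number blocks, and genes above 0 regressed out. Promoters were matched to members by symbol in RefSeq tables of another build than that of the counts. In 2 of the lists, 1 gene each is not reported here.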

Additional observations from a re-analysis of the deposited data

Results flagged for a closer look

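The 12 libraries left out for their spike-in share (22.3% to 97.2%) still held member RNA. Of the 10 members, 7 had over 3 counts in at least 1 of them, in libraries of 112196 to 1133747 gene counts. Id1 was above 0 in 7 of the 12 with up to 1300 counts, Smad2 in 5 with up to 78.2, Tgfbr1 in 4 with up to 363, and Id3 in 4 with up to 71. Smad4, Smad3 and Tgfb1 reached 39, 26 and 12 counts. Tgfbr2, Tgfb2 and Smad7 stayed at 3 counts or fewer. No empty-chamber control was analysed here.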

How the results depend on the processing

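Of the alternative values computed, 127 of 153 were classed as unchanged and 26 as moved. The limits were the SD over cells for levels, 28.3 percentile points for variability, the interval for a member's share of libraries, and 0.1 for r. The limit for levels is wide: Id3 was classed as unchanged with a mean of 5.96 over all 62 libraries, against 7.10. The count of unchanged values is therefore a weak measure of stability. Co-detection was not held to its interval. The chain of both receptors, Smad4 and Smad2 or Smad3 fell from 38 libraries to 27 at 1 CPM and 30 after thinning. Both counts were classed as unchanged, although they lie below the interval of 61.8% to 86.9%. The correlation of Id1 and Id3 fell to 0.62 over the cells with both above 0, an alternative chosen after seeing the data, as were spike-in scaling and leaving out library 32, library 54 or the 2 farthest cells. The call of Tgfb2 depended most on the criterion, with 36% of libraries above 0, 18% after thinning and 10% at 1 CPM. Its variability percentile was 59.5 over all 62 libraries, against 91.4. With all 62 libraries, the shares of Tgfb1, Tgfbr1, Tgfbr2, Smad4 and Id3 fell below their intervals, as did that of Tgfbr1 at 1 CPM. No paired analysis was possible because the libraries form 1 group. Depth limits reading of values under 1.39 CPM, and 1 culture gives no measure of the spread between cultures.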
